A study of Homo sapiens with 4 samples.

Results

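TRIM proteins are a family of ubiquitin ligases, most of which carry a RING domain that recruits a ubiquitin-loaded E2 enzyme, followed by B-box zinc fingers and a coiled coil. The part after the coiled coil differs between members and chooses the target: a PRY-SPRY domain in most, a PHD finger and bromodomain in the chromatin regulators, NHL repeats or a COS box in others. Many members act in antiviral defence, by binding viral capsids or by adding ubiquitin to the sensors and adaptors that lead to interferon, and a number of them are themselves induced by interferon.

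The 76 members described here are the genes whose symbol is TRIM followed by a number and optional letters and that GENCODE 29 annotates as protein coding, out of 58735 genes in the count table. A further 24 genes with such symbols are not protein coding and were left out. TRIM16L is among the 76, although RefSeq lists it as a transcribed pseudogene. The cells carry the label A549, an established line from a human lung adenocarcinoma, of wild-type genotype per the labels. They were grown in serum-containing medium, stained with an antibody to ICAM1 and sorted by flow cytometry before RNA sequencing. There were 2 libraries of the ICAM1-high subset and 2 of the ICAM1-low subset. Nothing in the labels ties the libraries to separate cultures, and the p-values below therefore reflect only how much these 4 libraries vary, possibly for technical reasons.

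The ICAM1-high libraries held 17638647 and 17271825 counts in total, against 16665362 and 16272591 for ICAM1-low. ICAM1, the sorting marker, was at 116 and 110.4 CPM (read counts relative to library size, with sizes scaled by the trimmed mean of M values) in ICAM1-high and at 4.61 and 4.89 CPM in ICAM1-low. CDKN2A, which is deleted from the A549 genome, had 1009 and 1214 counts in ICAM1-high and 0 in both ICAM1-low libraries, and MTAP, deleted with it, had 459 and 463 against 1 and 8. Both ICAM1-high libraries thus go against the cell line label at these genes, and no comparison can be made without them; every difference below compares these libraries and cannot be told apart from a difference in the cells they were made from. The epithelial genes KRT7, KRT8, KRT18, KRT19, EPCAM and CDH1 were counted in both subsets, at levels that differed. KRT8, KRT18, KRT19 and CDH1 were higher in ICAM1-high and KRT7 and EPCAM lower, beside 30.4% and 29.4% of all genes tested. KRT8 had a mean of 3074 CPM in ICAM1-high against 1290 CPM in ICAM1-low, and KRT7 603 against 1245 CPM. NKX2-1 and 5 surfactant genes had at most 8 counts per subset. NAPSA, also listed as a lung marker, was low but present, with 49 counts over the ICAM1-high libraries against 38. It passed the expression filter in both subsets and was not called higher or lower. The summed level of 10 endothelial markers was 23.7 to 27.2 CPM in ICAM1-high and 3.85 to 5.05 CPM in ICAM1-low (4 of 4 tested were higher, 2 of them passing the expression filter through ICAM1-high alone; 5 of the 10 were at 0 in ICAM1-low). For 10 fibroblast markers the summed level was 32.6 to 36.6 CPM against 5.24 to 6.52 CPM, mostly from COL1A1. Of the 6 tested, 4 were higher, beside 30.4% of all genes tested, and 4 passed the filter through ICAM1-high alone. COL1A2 had 0 and 1 counts. For 14 blood cell markers the summed level was 24.8 to 25.8 CPM against 18.7 to 19.8 CPM, nearly all from CD14 and ITGAM. PTPRC, CD3E, CD3D and MS4A1 were at 0 in all libraries. The part of other cells in the TRIM results was not tested.

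Promoter sequences are shown only for the 7 called members that hold an interferon-type match. Of these 7, 5 were higher in ICAM1-high and 2 lower, while the called members with a promoter window were 12 higher and 10 lower. The call of TRIM69, among the 5, was lost without some libraries. In the RefSeq promoter table (GRCh38.p14, 250 bases before to 50 after the start), 60 members had a window. A pair of GAAA runs with 2 bases of any kind between them, the core of the element bound by interferon-activated factors, was searched on both strands. It was present in 5 of the 12 windows of members that were higher in ICAM1-high (TRIM26, TRIM14, TRIM21, TRIM5 and TRIM69), in 2 of 10 windows of members that were lower (TRIM44 and TRIM16), in 1 of 13 of those not called and in 2 of 25 of those not tested. Over all members with a window it was in 10 of 60 (16.7%), and over all 27305 promoter windows in 3.65%. A second sequence, TGACNNNGC, the core of the antioxidant element, was in 1 of the 12, 0 of the 10, 2 of the 13 not called, 1 of the 25 not tested and 13.6% of all windows. The stretches below run 5′ to 3′ on the strand of the gene, with matches to the GAAA pair or its reverse complement in capitals. A match is a run of letters only, and binding was not measured.
TRIM26 (chr6:30213543-30213642, minus strand): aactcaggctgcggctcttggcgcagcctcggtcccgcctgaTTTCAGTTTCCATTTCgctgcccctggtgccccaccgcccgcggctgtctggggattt
TRIM14 (chr9:98119223-98119322, minus strand): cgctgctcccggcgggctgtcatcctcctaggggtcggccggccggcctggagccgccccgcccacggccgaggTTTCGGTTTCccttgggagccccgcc
TRIM21 (chr11:4393663-4393692, minus strand): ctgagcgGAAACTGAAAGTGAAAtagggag
TRIM5 (chr11:5685075-5685174, minus strand): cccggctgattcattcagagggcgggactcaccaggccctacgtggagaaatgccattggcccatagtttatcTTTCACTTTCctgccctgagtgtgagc
TRIM69 (chr15:44736421-44736520, plus strand): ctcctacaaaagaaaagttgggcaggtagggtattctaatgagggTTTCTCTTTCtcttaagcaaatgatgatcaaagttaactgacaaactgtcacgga
TRIM44 (chr11:35662675-35662774, plus strand): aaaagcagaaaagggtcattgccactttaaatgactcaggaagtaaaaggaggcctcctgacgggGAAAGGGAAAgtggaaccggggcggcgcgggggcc
TRIM16 (chr17:15682977-15683076, minus strand): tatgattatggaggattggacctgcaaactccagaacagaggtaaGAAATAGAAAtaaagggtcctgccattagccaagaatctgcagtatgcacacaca

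In TRIM26 and TRIM21 a pair of matches overlapped, 194 and 188 bases before the start in TRIM26 and 18 and 24 bases after it in TRIM21. In TRIM14 and TRIM5 a single match lay 26 and 27 bases before the start, and in TRIM69 62 bases before it. The matches in the members that were lower lay 35 bases (TRIM44) and 80 bases (TRIM16) before the start. TRIM22 was not matched in the table, nor were TRIM24, TRIM27, TRIM28, TRIM29 and TRIM45 among members that were higher and TRIM11, TRIM13, TRIM16L, TRIM4 and TRIM8 among those that were lower.

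Of the 76 members, 47 were abundant enough to test (45 in both subsets), 21 had no count in any library and 8 had too few counts. In the edgeR quasi-likelihood test with Benjamini-Hochberg adjustment over all 16250 genes tested, 18 members were higher and 15 lower in ICAM1-high at an adjusted p under 0.05, and 14 were not called. The share of members called was 70.2%, beside 59.7% of all genes tested and 65.7% of protein-coding genes tested (33.7% higher and 32.0% lower). The libraries of the subsets did not overlap for 41 of the 47 members, 87.2% of them, and for 78.3% of all genes tested. The higher calls made up 38.3% of members (30.4% of all genes) and the lower calls 31.9% (29.4%); both shares were near those of all genes. At least 1.5-fold, 12 members were higher (17.5% of all genes) and 5 lower (12.1%), and at least 2-fold, 4 were higher (10.8%) and 2 lower (4.71%). The median log2 fold change, ICAM1-high minus ICAM1-low, was 0.12 over the members and 0.01 over all genes. Over the 45 members with a mean of at least 1 CPM, which leaves out TRIM17 and TRIM67, it was 0.04, beside -0.005 over all such genes. With scaling by library size alone, 24 members were higher and 8 lower, so that 75.0% of the called members were higher in place of 54.5%. All genes shifted too: 6735 of 16250 were then higher and 3124 lower, in place of 4935 and 4771, with a median of 0.185.

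**Figure D1:**
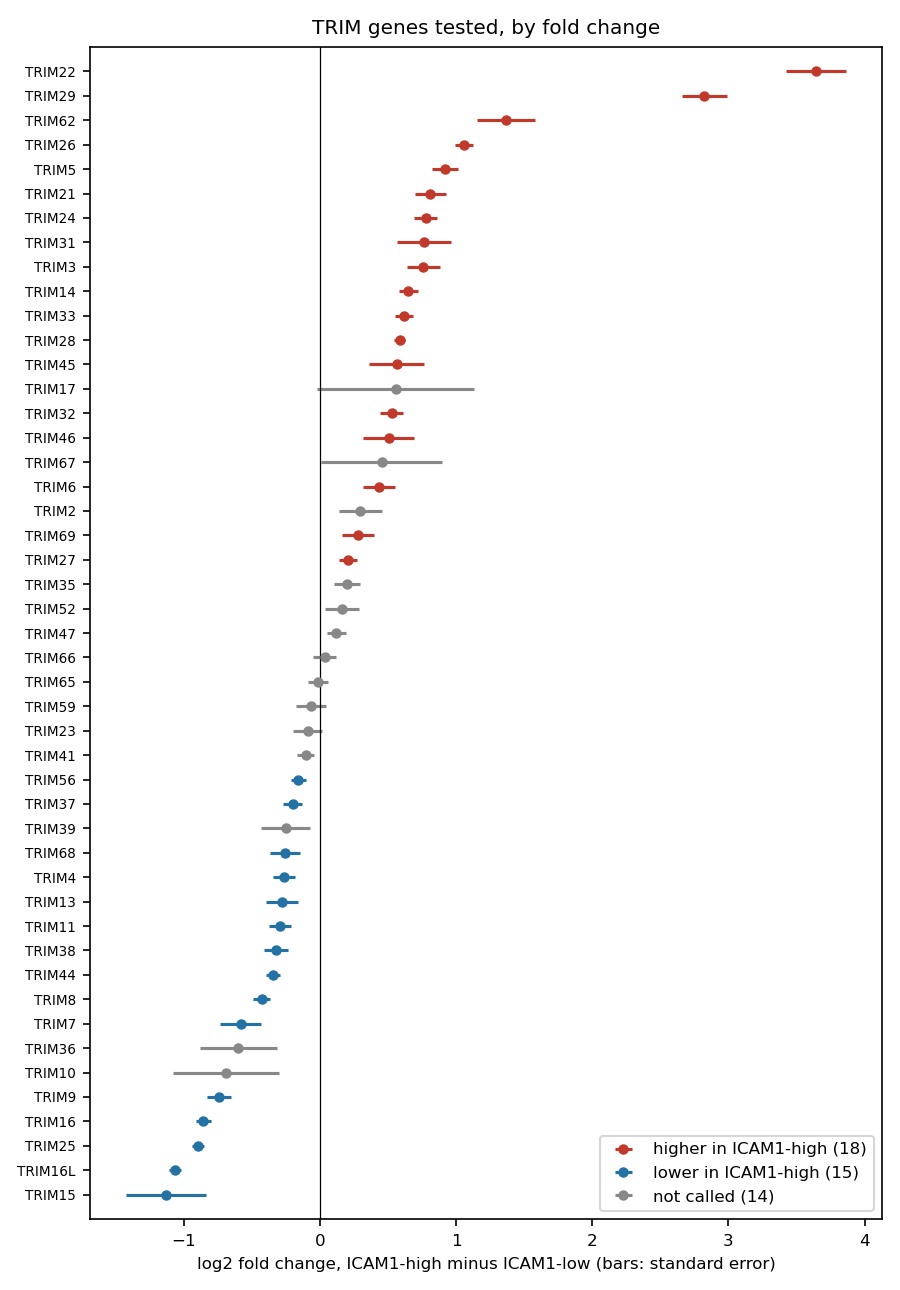
Log2 fold change, ICAM1-high minus ICAM1-low, of the 47 TRIM genes tested, each with its standard error from the edgeR fit, in order of size and coloured by call (adjusted p under 0.05). TRIM22 and TRIM29 stand apart at 3.64 and 2.82, whereas the other 45 lie between 1.37 (TRIM62) and -1.13 (TRIM15).

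The calls rested on the libraries to a degree that followed their size. All 17 called members that differed at least 1.5-fold kept their call in each of 12 alternatives other than the fold threshold itself, leaving out each library included. Of the 16 called members under 1.5-fold, 5 kept it (TRIM6, TRIM7, TRIM8, TRIM32 and TRIM44) and 11 lost it when at least 1 library was left out. TRIM68 was lost whichever library was left out. Calls of TRIM13, TRIM4, TRIM27, TRIM37, TRIM46 and TRIM56 were lost without ICAM1-low replicate 1, and those of TRIM11, TRIM38, TRIM45, TRIM56 and TRIM69 without ICAM1-low replicate 2. Those of TRIM13 and TRIM69 were also lost without ICAM1-high replicate 1, and those of TRIM4, TRIM45 and TRIM46 without ICAM1-high replicate 2. These 11 are given below as values and calls of the full set of libraries only.

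Among 12 members listed as interferon-linked or antiviral, 8 were higher and 3 lower in ICAM1-high, and 1 was not tested (59.7% of all genes were called). Their median log2 fold change was 0.65, beside 0.01 over all genes, but their summed level was 506 and 506 CPM in ICAM1-high against 531 and 530 CPM in ICAM1-low. The most abundant of them, TRIM25, was among those that fell. In bulk RNA, fewer cells that express a gene and less RNA per cell cannot be told apart. TRIM22 (ENSG00000132274, chromosome 11, 5689689 to 5737089, GRCh38), an interferon-induced inhibitor of viral transcription, had 296 and 230 counts in ICAM1-high and 22 and 13 counts in ICAM1-low. This was 15.9 and 12.5 CPM against 1.41 and 0.848 CPM, a log2 fold change of 3.64 with a standard error (SE) of 0.22 (adjusted p = 1.07e-23). Both ICAM1-high libraries lay above both ICAM1-low libraries, as they did for every member said here to have risen, and the difference was the largest of the family.

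TRIM26 (ENSG00000234127), encoded in the major histocompatibility region and known to act on interferon signalling, was at 76.9 and 79.0 CPM in ICAM1-high against 37.9 and 36.8 CPM in ICAM1-low (log2 fold change 1.06, SE 0.07, adjusted p = 2.27e-22). TRIM5 (ENSG00000132256), which binds and disassembles incoming retroviral capsids, was at 31.1 and 33.3 CPM against 17.7 and 16.4 CPM (0.92, SE 0.10). TRIM21 (ENSG00000132109), a cytosolic antibody receptor that degrades antibody-coated virus, was at 22.2 and 20.6 CPM against 12.2 and 12.2 CPM (0.81, SE 0.11). For these 3 genes the gap between the subsets was several times that between libraries of a subset. TRIM14 (ENSG00000106785), which has no RING domain and serves as an adaptor in mitochondrial antiviral signalling, was at 62.7 and 65.5 CPM against 43.6 and 38.1 CPM (0.65, SE 0.07). TRIM31, a ligase that acts on the adaptor MAVS, was at 6.98 and 5.99 CPM against 3.97 and 3.65 CPM (0.77, SE 0.20). TRIM6, which makes free ubiquitin chains that activate the kinase IKBKE, was at 17.6 and 16.6 CPM against 13.0 and 12.3 CPM (0.43, SE 0.12). TRIM69, an interferon-induced inhibitor of vesicular stomatitis virus, was at 17.9 and 15.6 CPM against 14.4 and 13.1 CPM (0.28, SE 0.12), a call that did not hold without some libraries.

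TRIM25 (ENSG00000121060, chromosome 17, 56836387 to 56914080), known for ubiquitination of the RNA sensor RIG-I, went the other way. It was at 137 and 139 CPM in ICAM1-high against 255 and 258 CPM in ICAM1-low, 1.86-fold lower in ICAM1-high (log2 fold change -0.89, SE 0.05, adjusted p = 3.1e-27). The libraries of a subset differed little beside the gap between the subsets. TRIM38, which restrains TAB2-dependent signalling, was at 27.1 and 27.0 CPM against 31.9 and 35.7 CPM (-0.32, SE 0.09), and TRIM56, an RNA-binding antiviral ligase, at 90.8 and 91.0 CPM against 100.3 and 102 CPM (-0.16, SE 0.06). Both calls were lost without ICAM1-low replicate 2, and the sign of TRIM56 turned with scaling by library size alone (0.017). TRIM34, a capsid-binding relative of TRIM5, had 2 and 2 counts in ICAM1-high against 3 and 0 in ICAM1-low and was not tested.

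**Figure D2:**
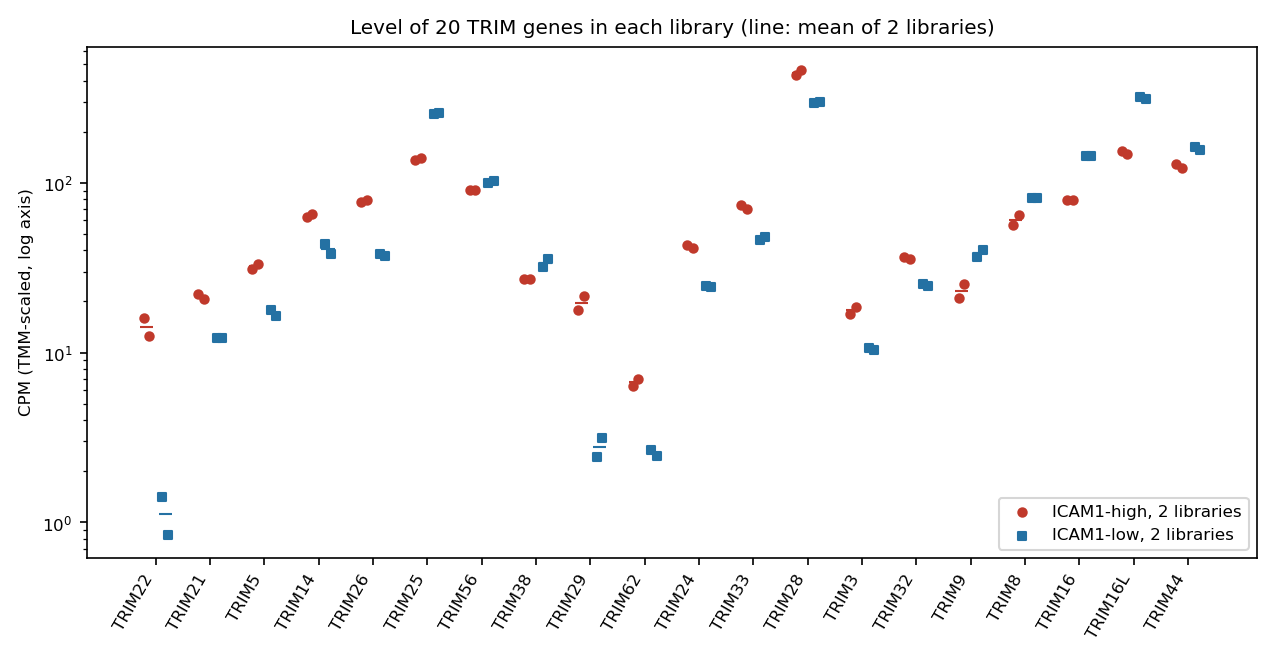
Level of 20 TRIM genes in each library, in CPM on a log axis, with ICAM1-high (circles) left of ICAM1-low (squares) for each gene and a line at the mean of the 2 libraries of a subset. TRIM22 was at 12.5 to 15.9 CPM in ICAM1-high and 0.848 to 1.41 CPM in ICAM1-low, whereas TRIM25, TRIM16 and TRIM16L were lower in both ICAM1-high libraries.

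The chromatin members, which carry a PHD finger and a bromodomain, comprised TRIM24, TRIM28, TRIM33 and TRIM66. Of these 4, 3 were higher and 0 lower, beside 30.4% and 29.4% of all genes. TRIM28 (ENSG00000130726, chromosome 19, 58544091 to 58550722), also called KAP1, is the corepressor that KRAB zinc finger proteins recruit to transposable elements. It was at 429.9 and 459.9 CPM in ICAM1-high against 293 and 299 CPM in ICAM1-low (log2 fold change 0.59, SE 0.04, adjusted p = 2.79e-20). Per kilobase of exon it was the most abundant member in ICAM1-high and level with TRIM16L in ICAM1-low, at 110.3 ± 5.26 CPM per kilobase in ICAM1-high and 73.4 ± 1.09 in ICAM1-low (SD, n = 2 each). TRIM24, a cofactor of nuclear receptors and a ligase for p53, was at 43.0 and 41.4 CPM against 24.8 and 24.4 CPM (0.78, SE 0.08), and TRIM33, which ubiquitinates SMAD4, at 73.8 and 69.9 CPM against 45.9 and 47.7 CPM (0.62, SE 0.07). Their rises were thus of like size, whereas TRIM66 was at 29.9 and 32.1 CPM against 29.7 and 30.8 CPM and was not called (0.04, SE 0.09, adjusted p = 0.738).

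TRIM28 was read beside 14 genes listed as its corepressor partners and cofactors. Of the 12 tested, 7 were higher in ICAM1-high and 1 lower, beside 30.4% and 29.4% of all genes, and 4 were not called (median log2 fold change 0.20). At least 1.5-fold, 1 was higher and 0 lower, beside 17.5% and 12.1% of all genes. The histone methyltransferase gene SETDB1, which TRIM28 recruits and which is named here after its values were seen, was at 41.0 and 47.0 CPM against 39.2 and 47.5 CPM, overlapping values that were not called (0.02, adjusted p = 0.832). The heterochromatin protein gene CBX5 rose by 0.36 (SE 0.04) and the remodeller gene CHD3 by 0.42 (SE 0.05). MAGEA3, a cancer-testis gene whose product binds the TRIM28 RING region, was at 5.15 and 6.26 CPM against 0.384 and 0.652 CPM (3.45, SE 0.33). It met the expression filter in ICAM1-high only and has near-identical relatives, so its value is uncertain.

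Members with NHL repeats or, in TRIM45, a filamin domain gave 3 higher and 0 lower among the 4 tested, beside 30.4% and 29.4% of all genes. At least 1.5-fold, 1 of the 4 was higher (17.5% of all genes). TRIM3, a brain-enriched ligase, was at 16.9 and 18.7 CPM in ICAM1-high against 10.7 and 10.3 CPM in ICAM1-low (0.76, SE 0.12). TRIM32, which is mutated in a limb-girdle muscular dystrophy, was at 36.6 and 35.7 CPM against 25.3 and 24.8 CPM (0.53, SE 0.09). For both genes the libraries of the subsets were well apart. TRIM45 was at 5.74 and 5.94 CPM against 3.97 and 3.91 CPM (0.57, SE 0.20, adjusted p = 0.0126). TRIM2, a ligase for neurofilament light chain, was at 9.60 and 8.11 CPM against 6.59 and 7.82 CPM and was not called (0.30, SE 0.16), and the stem cell gene TRIM71 had 0 counts in all libraries.

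TRIM29, TRIM14, TRIM16 and TRIM44 lack a RING domain, and 2 of them were higher and 2 lower, beside 30.4% and 29.4% of all genes. TRIM29 (ENSG00000137699, chromosome 11, 120111275 to 120185529), a member expressed in stratified and basal epithelia, was at 17.9 and 21.6 CPM in ICAM1-high against 2.43 and 3.13 CPM in ICAM1-low. Its log2 fold change of 2.82 (SE 0.16, adjusted p = 1.03e-24) was the second largest of the family, 7.08-fold, with no overlap of libraries. TRIM16 (ENSG00000221926), which takes part in the autophagic response to damaged lysosomes, was at 79.4 and 79.6 CPM against 143 and 144 CPM (-0.85, SE 0.05, adjusted p = 1.19e-22). Its paralog TRIM16L (ENSG00000108448), also on chromosome 17, was at 153 and 149 CPM against 319 and 313 CPM (-1.07, SE 0.05, adjusted p = 3.53e-32). Both fell, but the 2 genes are near-identical in part and the sources used here do not tell how reads common to both were counted, which makes their separate values uncertain. TRIM44, a stabiliser of other TRIM proteins, was at 129 and 122 CPM against 162 and 156 CPM (-0.34, SE 0.05).

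The COS box members bind microtubules, and several are neuronal. Of 7 listed, 4 were tested, with 1 higher and 1 lower (30.4% and 29.4% of all genes). TRIM9, a brain ligase that regulates axon branching through the netrin receptor DCC, was at 21.0 and 25.2 CPM in ICAM1-high against 36.8 and 40.4 CPM in ICAM1-low (-0.74, SE 0.09, adjusted p = 6.88e-11). TRIM46, which organises microtubules at the axon initial segment, was at 6.60 and 7.35 CPM against 4.80 and 5.02 CPM (0.51, SE 0.19). The TRIM46 call was lost without some libraries. TRIM36 was at 2.09 and 1.91 CPM against 3.71 and 2.35 CPM and was not called (-0.60, SE 0.28, adjusted p = 0.0618), although it was without ICAM1-low replicate 2 (-0.90, edgeR adjusted p = 0.0141). TRIM67 was at 1.34 and 0.871 CPM against 1.02 and 0.587 CPM, overlapping values that were not called.

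Other members that fell were TRIM15, TRIM8 and TRIM7. TRIM15, a component of focal adhesions, was at 1.40 and 1.52 CPM in ICAM1-high against 3.07 and 3.33 CPM in ICAM1-low (-1.13, SE 0.29, adjusted p = 6.7e-04), resting on 54 against 99 counts. Its estimate lay within its SE of that of TRIM16L (-1.07). TRIM8, which promotes NF-kB activation, was at 56.4 and 64.3 CPM against 81.2 and 81.2 CPM (-0.43, SE 0.06), and TRIM7, which binds glycogenin, at 7.19 and 6.75 CPM against 10.3 and 10.6 CPM (-0.58, SE 0.15). Libraries of the subsets did not overlap for these 3. Smaller calls of lower level, each lost without some library, were those of TRIM11, TRIM4, TRIM13, TRIM68 and TRIM37, with log2 fold changes between -0.29 and -0.20. TRIM11 was at 35.2 and 34.4 CPM against 39.6 and 45.8 CPM (-0.29, SE 0.08). TRIM13, a ligase anchored in the endoplasmic reticulum, was at 12.8 and 14.0 CPM against 16.8 and 15.6 CPM (-0.28, SE 0.12). TRIM4 was at 35.8 and 31.7 CPM against 42.1 and 38.7 CPM (-0.26, SE 0.08). TRIM37, which limits centriole assembly, and TRIM68 had log2 fold changes of -0.20 and -0.26. The other member that rose by over 2-fold was TRIM62, a regulator of epithelial polarity, at 6.38 and 6.97 CPM against 2.69 and 2.48 CPM (1.37, SE 0.22, adjusted p = 9.97e-08). TRIM27, a transcriptional repressor and ligase, was at 64.2 and 67.0 CPM against 54.2 and 59.3 CPM (0.21, SE 0.07), a call lost without ICAM1-low replicate 1.

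Of the 14 members not called, the 8 most abundant were TRIM41, TRIM47, TRIM65, TRIM66, TRIM35, TRIM23, TRIM59 and TRIM52, with log2 fold changes from -0.10 to 0.20. TRIM65, a ligase for the RNA sensor MDA5, was at 48.1 and 48.4 CPM in ICAM1-high against 49.1 and 48.4 CPM in ICAM1-low (-0.01, SE 0.07, adjusted p = 0.878). TRIM47, its neighbour on chromosome 17, was at 54.7 and 55.8 CPM against 48.7 and 53.0 CPM (0.12, SE 0.07, adjusted p = 0.131), and TRIM41 at 65.9 and 70.7 CPM against 71.8 and 74.8 CPM (-0.10, SE 0.06). With scaling by library size alone TRIM65 was called higher at 0.159, TRIM47 at 0.293 and TRIM35, a regulator of pyruvate kinase, at 0.372, and TRIM2, TRIM52 and TRIM66 were also called higher. TRIM35 was at 24.5 and 26.5 CPM against 22.8 and 21.6 CPM (0.20, SE 0.10), and was also called without ICAM1-high replicate 1. TRIM52 was at 12.8 and 15.8 CPM against 13.4 and 12.1 CPM (0.17, SE 0.13). TRIM23, which has an ARF GTPase domain, was at 19.4 and 16.7 CPM against 19.8 and 18.6 CPM (-0.09, SE 0.11). The membrane-anchored TRIM59 was at 17.9 and 16.3 CPM against 18.3 and 17.5 CPM (-0.07, SE 0.11). Libraries of the subsets overlapped for TRIM52, TRIM23 and TRIM59 and not for TRIM35. Of the rest, TRIM39 was at -0.25 (SE 0.18), TRIM17 at 0.56 (SE 0.58) and TRIM10 at -0.69 (SE 0.39) on the log2 scale. TRIM17 and TRIM67 passed the filter through ICAM1-high alone. Among the alternatives run, TRIM10 was called only without ICAM1-high replicate 1, and TRIM41 only without ICAM1-high replicate 2.

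Members known from striated muscle were at or near 0, as were several groups of closely similar copies. The muscle genes TRIM54, TRIM55, TRIM63 and TRIM72 had 18, 7, 0 and 0 counts over the ICAM1-high libraries against 6, 2, 0 and 2 over the ICAM1-low libraries. TRIM73 and TRIM74, near-identical copies on chromosome 7, had 22 and 25 counts against 8 and 5. TRIM40 had 5 counts against 16, and TRIM75 had 0 against 1, and none of these genes was abundant enough to test. The 21 genes with no count in any library were TRIM42, TRIM43, TRIM43B, TRIM48, TRIM49, TRIM49B, TRIM49C, TRIM49D1, TRIM49D2, TRIM50, TRIM51, TRIM51G, TRIM58, TRIM60, TRIM61, TRIM63, TRIM64, TRIM64B, TRIM64C, TRIM71 and TRIM77. A count of 0 allows up to 3 counts per library, 0.161 to 0.196 CPM, by counting error alone.

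The summed level of all members was 2102 and 2139 CPM in ICAM1-high against 2228 and 2234 CPM in ICAM1-low. Its make-up differed more than its size. TRIM28 held 20.4% and 21.5% of it in ICAM1-high against 13.2% and 13.4% in ICAM1-low, whereas TRIM16L held 7.30% and 6.95% against 14.3% and 14.0%, and TRIM25 6.51% and 6.51% against 11.4% and 11.6%. These shares of counts are not corrected for length. Per kilobase of exon, the order over the 4 libraries was TRIM28, TRIM16L, TRIM25, TRIM16, TRIM47 and TRIM26. In ICAM1-low, TRIM28 at 73.4 ± 1.09 and TRIM16L at 73.0 ± 0.916 CPM per kilobase did not differ beyond their spread, while in ICAM1-high TRIM16L was at 34.9 ± 0.766 (SD, n = 2). In ICAM1-high, TRIM26 at 17.8 ± 0.326 and TRIM47 at 17.6 ± 0.257 CPM per kilobase came next, did not differ beyond their spread, and lay above TRIM25 at 14.5 ± 0.164 and TRIM16 at 14.1 ± 0.0252. In ICAM1-low, TRIM25 at 27.0 ± 0.271 and TRIM16 at 25.5 ± 0.111 CPM per kilobase came before TRIM47 at 16.2 ± 0.976 and TRIM26 at 8.54 ± 0.176.

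**Figure D3:**
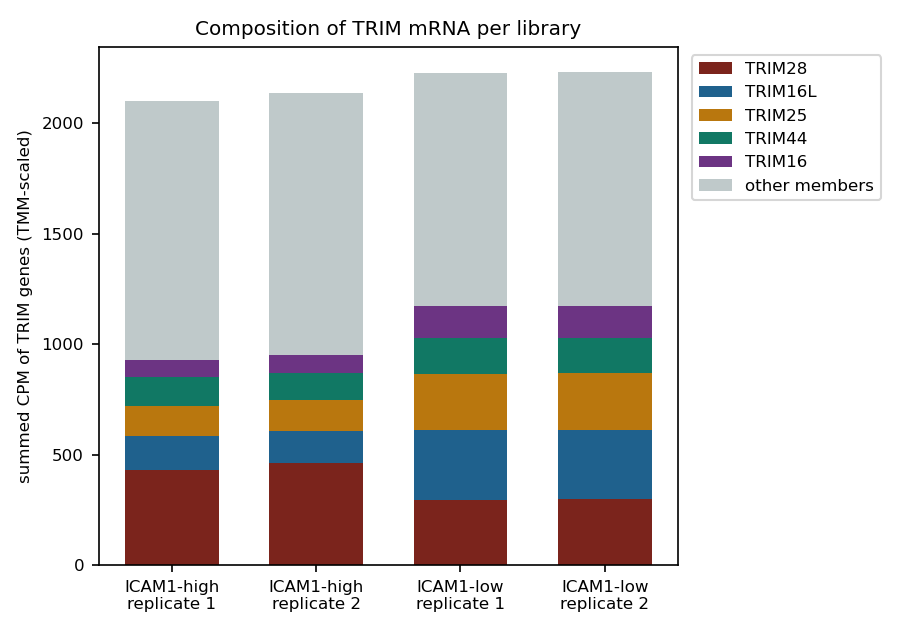
Summed CPM of the TRIM genes in each library, stacked into TRIM28, TRIM16L, TRIM25, TRIM44, TRIM16 and all other members. The bars reach 2102 and 2139 CPM in ICAM1-high and 2228 and 2234 CPM in ICAM1-low, with a larger TRIM28 part and smaller TRIM16L and TRIM25 parts in ICAM1-high.

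By position, 39 of the 76 members lay in 11 groups of neighbours in which each gene was within 1 Mb of the next. Tested genes were held by 5 of these groups. On chromosome 11 (4384897 to 6474459), TRIM21, TRIM6, TRIM5, TRIM22 and TRIM3 were higher in ICAM1-high, TRIM68 was lower and TRIM34 was not tested. On chromosome 6 (30102897 to 30343729), TRIM31 and TRIM26 were higher, TRIM15 was lower and TRIM10 and TRIM39 were not called. TRIM15 and TRIM26, about 2-fold lower and higher, are direct neighbours among the members of that group. TRIM47 and TRIM65 on chromosome 17 were both not called, as were TRIM41 and TRIM52 beside TRIM7 on chromosome 5. The groups on chromosomes 2, 4 and 7, and 3 further groups on chromosome 11, held members that were not tested.

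**Figure D4:**
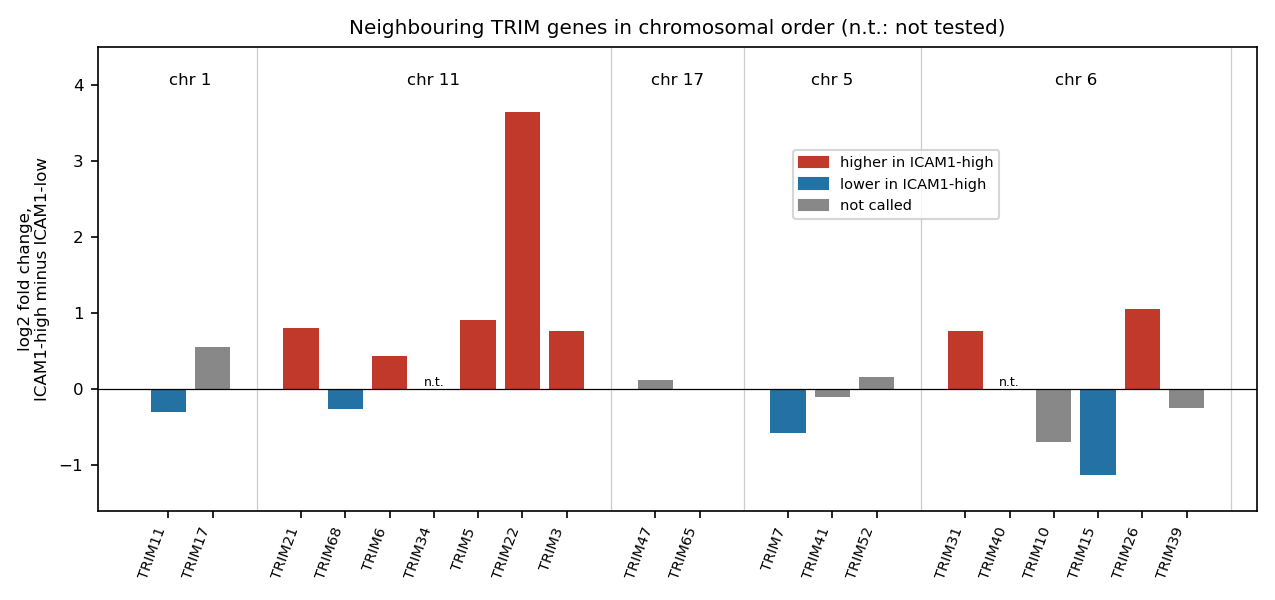
Log2 fold change, ICAM1-high minus ICAM1-low, of neighbouring TRIM genes in their order along each chromosome, for the 5 groups with tested members. In the chromosome 11 group 5 genes were higher, led by TRIM22 at 3.64, and TRIM68 was lower, and in the chromosome 6 group TRIM31 (0.77) and TRIM26 (1.06) were higher and TRIM15 (-1.13) was lower.

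Family relatives with other names, taken as a list of 8, gave 4 higher and 3 lower among 7 tested, beside 30.4% and 29.4% of all genes. PML, the organiser of nuclear bodies that is itself induced by interferon, was at 45.4 and 48.2 CPM in ICAM1-high against 15.2 and 12.4 CPM in ICAM1-low (1.76, SE 0.09, adjusted p = 2.29e-26). TRIML2, which lacks a RING domain, was at 26.5 and 27.3 CPM against 74.4 and 76.7 CPM (-1.49, SE 0.07, adjusted p = 1.1e-28). The microtubule-binding ligase gene MID1 was at 214 and 205 CPM against 355 and 352 CPM (-0.76, SE 0.04), and its paralog MID2 fell by 0.69 (SE 0.13). Of the relatives that were higher, MEFV and CMYA5 passed the filter through ICAM1-high alone.

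Of 14 E2 enzymes that supply TRIM RING domains, all tested, 1 was higher and 10 lower (30.4% and 29.4% of all genes), with a median log2 fold change of -0.31. UBE2D2, of the UBE2D group used by many TRIM ligases, was at 98.3 and 103 CPM in ICAM1-high against 179 and 169 CPM in ICAM1-low (-0.79, SE 0.05), UBE2E1 fell by 0.71 (SE 0.06) and UBE2W, which primes TRIM5 and TRIM21 with a first ubiquitin, by 1.04 (SE 0.09). UBE2L6, the E2 enzyme of the ubiquitin-like modifier ISG15, was the member that rose, at 60.9 and 59.5 CPM against 24.8 and 20.6 CPM (1.41, SE 0.08, adjusted p = 1.09e-24). With scaling by library size alone, 4 of the 14 were higher and 7 lower, beside 6735 and 3124 of all 16250 genes tested. At least 1.5-fold, 1 was higher and 4 lower, beside 17.5% and 12.1% of all genes. Without ICAM1-high replicate 2, 2 were higher.

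Autophagy receptors and core factors, to which several TRIM proteins bind, were lower in 9 of 10 cases with 0 higher (29.4% and 30.4% of all genes), with a median of -0.69 beside 0.01 over all genes. At least 1.5-fold, 5 were lower (12.1% of all genes). SQSTM1, the ubiquitin-binding receptor p62, was at 541 and 576 CPM in ICAM1-high against 1511 and 1505 CPM in ICAM1-low (-1.43, SE 0.04). MAP1LC3B fell by 1.40 (SE 0.06), CALCOCO2 by 1.06 (SE 0.05) and the kinase gene ULK1 by 0.98 (SE 0.05). In the RNA-sensing and interferon signalling list, 13 of 23 were higher and 6 lower, beside 30.4% and 29.4% of all genes (median 0.42). With scaling by library size alone, 15 of them were higher and 2 lower, beside 6735 and 3124 of all 16250 genes tested. At least 1.5-fold, 9 were higher and 1 lower, beside 17.5% and 12.1% of all genes. RIGI, the sensor that TRIM25 ubiquitinates, was at 144 and 125 CPM against 52.6 and 53.3 CPM (1.35, SE 0.06), in the same libraries in which TRIM25 was 1.86-fold lower. ISG15 rose by 2.12 (SE 0.06) and IRF7 by 1.99 (SE 0.12), and STING1 had 505 counts against 5 and met the expression filter in ICAM1-high only.

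Some values carry a limit from shared sequence. Of the 47 members tested, 23 share exon bases with another annotated gene, and whether counting used strand is not given in the sources at hand. TRIM47 shares exon bases with a gene on the other strand. TRIM59 shares exon bases with SMC4 on the other strand, and TRIM6 with the TRIM6-TRIM34 readthrough gene on its own strand.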

How the data were processed

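RNA of sorted cells labelled A549 was sequenced after preparation with a SMARTer mRNA kit, per the labels. The authors deposited a table of whole-number counts per Ensembl gene for 4 libraries. Per the submitters' processing notes, FastQC 0.10.1 was used and the build was GRCh38; the aligner, the counter, its strand setting and its treatment of multi-mapping reads were not given in the sources used here. Symbols for 58207 of 58735 gene IDs came from the supplied name table. Gene types, positions and exon lengths came from GENCODE 29.

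Counts were analysed in R 4.3.3 with edgeR 4.0.16: default expression filter (minimum count 10, minimum total 15), scaling by the trimmed mean of M values, robust quasi-likelihood fit of the subset term on all genes, and Benjamini-Hochberg adjustment over 16250 genes. Genes were called at an adjusted p under 0.05, and printed p-values and SE come from that fit. The estimated coefficient of variation between libraries was 3.64%. CPM per kilobase is CPM divided by the merged exon length. Error bars of means are SD over 2 libraries, and the limit for a count of 0 is 3 counts. Counts were also simulated for 15888 genes in 2 against 2 libraries, with 49 to 50 genes changed at each fold size. Recovery was 64% for 1.25-fold, 74% for 1.5-fold, 96% for 2-fold and 100% for 4-fold changes, and 11 unchanged genes were called. In the simulation few genes changed and the subsets did not differ in composition, whereas 59.7% of genes were called in the data. The 11 therefore do not give the number of false calls in these data.

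The members and gene lists were chosen with earlier results of these data known. Members named with values in every library were those called whose libraries did not overlap and whose mean reached 1 CPM, up to 12 with the largest change in each direction, the 6 most abundant per kilobase and up to 8 not called; further members are named after their values were seen. Of each other list, up to 4 genes with the smallest adjusted p were named, and exceptions are stated; 1 gene that this rule selects is not reported here. Alternatives were DESeq2 1.42.0 and its size factors, limma 3.58.1 (voom), library-size scaling, other filters and thresholds, the replicate number as a block, and leaving out each library.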

Additional observations from a re-analysis of the deposited data

How the results depend on the processing

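With scaling by library size alone, 24 members were higher and 8 lower, beside 6735 and 3124 of all 16250 genes tested. The members' median log2 fold change was then 0.293. TRIM56 turned to 0.017 (edgeR adjusted p = 0.817) and TRIM65 to 0.159 (edgeR adjusted p = 0.0455). Requiring a 1.5-fold change left 12 higher and 5 lower. DESeq2 called 14 higher and 10 lower, and an adjusted p under 0.01 left 15 and 12. With DESeq2 size factors, limma-voom or no filter on low counts the counts were 18 and 15, and with a mean of at least 1 CPM 19 and 15. Leaving out a library gave 16 to 18 higher and 10 to 14 lower, with the median between 0.092 and 0.154. In the main fit the median was 0.04 over the 45 members with a mean of at least 1 CPM. With the replicate number as a block, 18 members were higher and 15 lower. Over genes, the deviations of libraries that shared a number had a correlation of 0.0417. A shared effect that is small beside counting noise would also give a low value. Whether the numbers pair the samples is therefore not known. The median was not recomputed for the stricter thresholds, which leave the fold changes as they are. The causes of these shifts were not tested. With 2 libraries per subset, low members such as TRIM10 (SE 0.39) and TRIM36 (SE 0.28) had wide errors on the log2 scale, and small changes in them may have gone uncalled.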
